A study of Sus scrofa with 15 samples.

Results

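Vitamin D metabolism and renal calcium binding were examined through 6 genes, CYP24A1, CYP27B1, CYP2R1, VDR, CALB1 and S100G. A probe was assigned to 5 of the 6 genes by matching RefSeq transcript accessions to pig gene symbols. That gave 8 of the 43603 probes and 5 of the 3020 genes matched to a probe in this way. CYP2R1 was not analysed here, since no probe was matched to it. CYP24A1 was chosen by measured values, the level of 1 of its probes and the disagreement between its probes, so its values are given as a description with no test. Kidney RNA came from female Yorkshire pigs of the same age, and each of the 3 groups held 5 pigs, measured on an array each. Control pigs had 90 minutes of warm ischemia of the right kidney without preconditioning. rIPCe pigs had remote ischemic preconditioning, in which the blood flow to a limb was stopped and restored by clamping the right external iliac artery, immediately before the same 90 minutes of warm ischemia (the early window). In rIPCl pigs, the preconditioning preceded the warm ischemia by 24 hours (the late window). The left kidney had been removed beforehand in every pig, so the data describe a single remaining kidney, and all groups were harvested 72 hours after the operation and had undergone ischemia.

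Vitamin D is activated in steps. CYP2R1, in the liver, adds a hydroxyl group at carbon 25, and CYP27B1, in the mitochondria of the proximal tubule, adds the one that makes the active hormone, calcitriol. CYP24A1, another mitochondrial enzyme of the tubule, hydroxylates and so inactivates both the precursor and the hormone, and its gene is one of the best known targets of the vitamin D receptor. VDR is that receptor, a nuclear receptor that binds DNA together with a retinoid X receptor. CALB1 (calbindin-D28k) and S100G (calbindin-D9k) are calcium-binding proteins which carry calcium across the cells of the distal convoluted and connecting tubule, and both are raised by calcitriol.

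All values are log2 signals after quantile normalization over the 15 arrays, unless stated otherwise, and fold changes are differences of mean log2 signals. A probe was called when its Benjamini-Hochberg adjusted p from limma, taken over all 43603 probes, was under 0.05. Signal exceeded background clearly for 62.2% to 69.5% of the spots per control array, 67.4% to 73.9% per rIPCe array and 71.8% to 74.2% per rIPCl array. No spot was saturated, and correlations between arrays ranged from 0.967 to 0.992. Kidney markers were present, with the phosphate transporter SLC34A1 at 14.18 to 15.14 and the claudin CLDN16 at 10.48 to 11.52 in the control group. The arrays lay on 4 slides that were not balanced over the groups. Slide 1 held control 1 to 4, slide 2 held control 5 with rIPCe 1 to 3, slide 3 held rIPCe 4 and 5 with rIPCl 1, and slide 4 held rIPCl 2 to 5. A difference between rIPCl and control can therefore not be told apart from a difference between slides except through control 5 and rIPCl 1. No slide held both groups, so these 2 arrays are linked only by the rIPCe arrays of slides 2 and 3.

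The vitamin D receptor was the 1 tested member to pass the adjusted threshold, in rIPCl, and its value in rIPCe was of similar size. Of the 4 genes tested, VDR was called lower in rIPCl than in control and CYP27B1, CALB1 and S100G were not called, where 6.27% of all probes were called and 3.58% were called lower. In rIPCe limma called none of the 4, and VDR was the only 1 of them with an unadjusted p under 0.05, where 0.00229% of all probes were called and 14.1% had such a p (26.8% in rIPCl). The comparison of rIPCl with rIPCe called none of the 4 by limma, and none had an unadjusted p under 0.05, against 0% and 3.85% of all probes. The study's thresholds, a fold change of at least 2 and a p under 0.05, were applied here to limma's unadjusted p. Its methods describe a Benjamini-Hochberg adjustment and another test. By them VDR was again the only one of the 4 in rIPCl and in rIPCe, and they took 5.83% and 2.18% of all probes, and 0.525% between rIPCl and rIPCe. Every one of the 8 member probes was well above background on each of the 15 arrays, so no member value below is a bound.

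**Figure D1:**
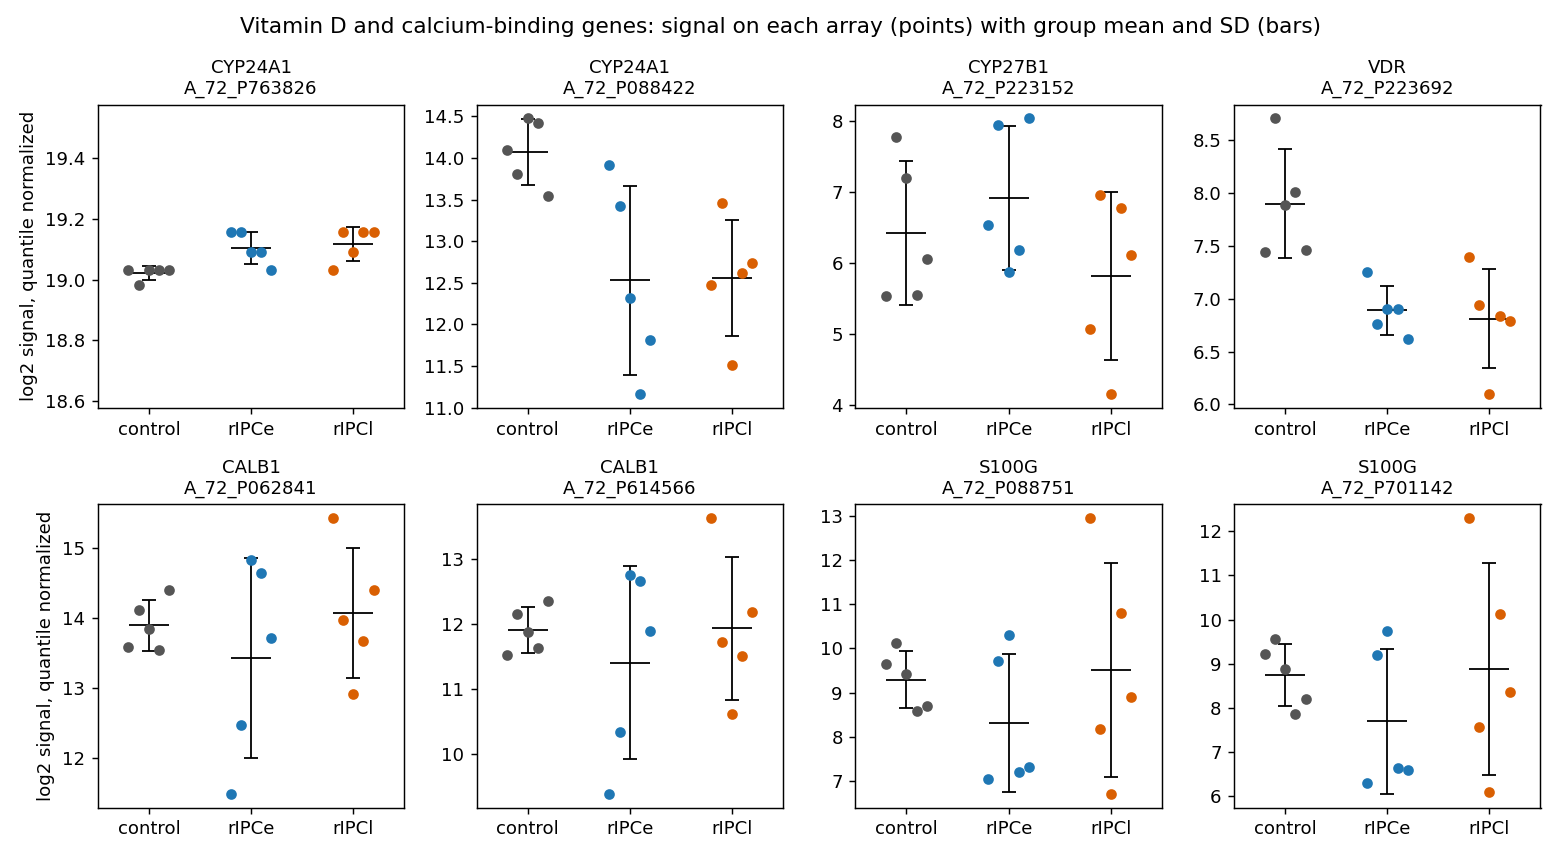
Signal of each of the 8 probes on every array (points, log2 scale, quantile normalized) by group, with the group mean and SD over 5 arrays as bars, each panel on its own scale. VDR and the second CYP24A1 probe lie lower in both preconditioned groups, CYP27B1 overlaps in all groups, and CALB1 and S100G are spread widely in rIPCe and rIPCl compared with the control group.

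VDR is the receptor through which calcitriol acts on transcription. Its probe, A_72_P223692, read 7.44, 8.71, 7.89, 8.01 and 7.46 on control arrays 1 to 5. On rIPCe arrays 1 to 5 it read 7.25, 6.76, 6.90, 6.91 and 6.62. On rIPCl arrays 1 to 5 it read 7.40, 6.94, 6.10, 6.84 and 6.79. All 10 preconditioned pigs lay below all 5 controls, a pattern that 1.71% of all probes showed, and the 2 preconditioned groups overlapped each other. The group means were 7.90 ± 0.52 in control, 6.89 ± 0.23 in rIPCe and 6.81 ± 0.47 in rIPCl (SD, n = 5 each). The highest rIPCl array, rIPCl 1 at 7.40, was close below the lowest control array at 7.44, and the highest rIPCe array was also its array 1.

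In rIPCl, VDR fell by 1.09 on the log2 scale (SE 0.26), or 2.13-fold, with an adjusted p of 0.0330 by limma and an exact two-sided permutation p of 0.00794, which is the smallest that the exact test of 5 against 5 can give. In rIPCe, the difference was -1.01 (SE 0.26), 2.02-fold lower, with an adjusted p of 0.188 by limma and the same exact permutation p of 0.00794. Of all probes, 6.76% had all 5 rIPCl arrays below all 5 controls, 2.74% had all 5 rIPCe arrays there, and 0.331% had all 5 rIPCl arrays below all 5 rIPCe arrays. The comparisons with the control group share the control arrays, so they are not independent of each other. The direct difference between rIPCl and rIPCe was -0.08, with a 95% interval from -0.63 to 0.48 and an adjusted p of 0.988 by limma, so a further change of up to 0.63 downwards lay within the interval.

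The VDR call was not stable to single pigs or to the slide. It was lost when control 2, 3 or 4 or rIPCl 2, 3, 4 or 5 was left out, with adjusted p between 0.0547 and 0.0742 by limma, although the log2 fold change stayed between -1.24 and -0.89 whichever array was left out. With slide as a fixed block the VDR difference in rIPCl was 0.15 (adjusted p 0.974 by limma), and with slide as a random block it was -0.91 (adjusted p 0.268). Within slide 2, the 3 rIPCe arrays lay 0.49 below control 5, and within slide 3, rIPCl 1 lay 0.63 above the mean of the 2 rIPCe arrays. Both contrasts rest on a single array on one side.

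**Figure D2:**
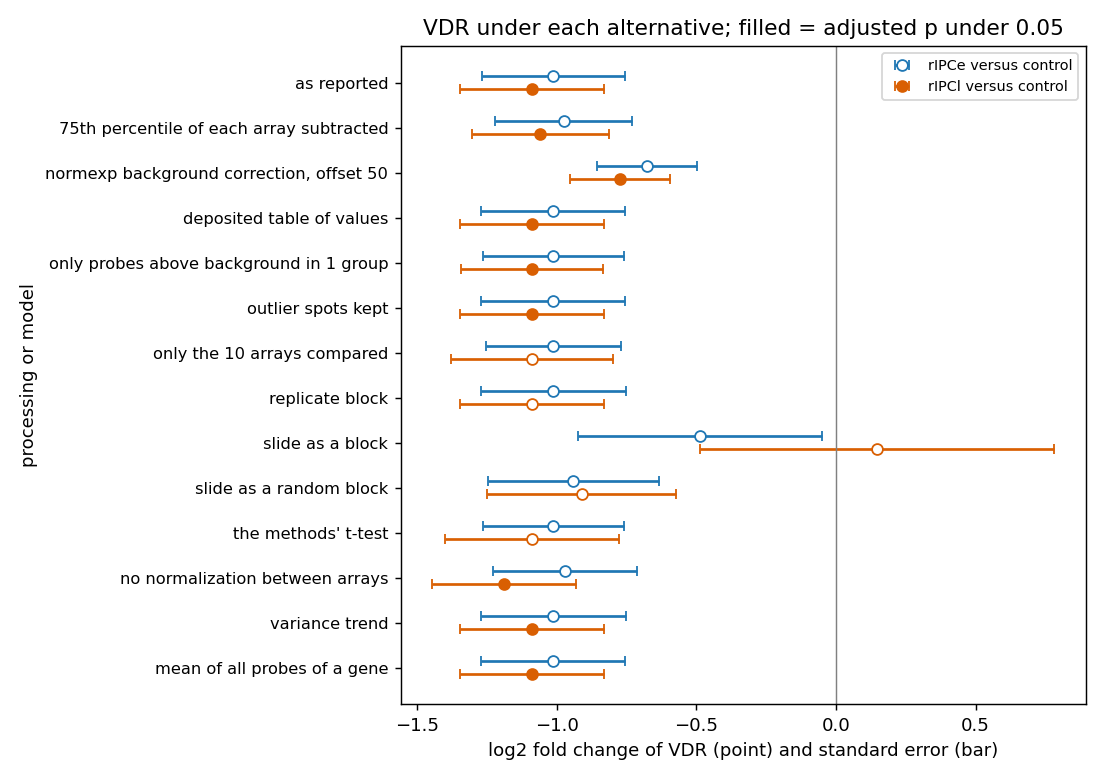
Log2 fold change of VDR against control under each way of processing or modelling (points, with the standard error as a bar), for rIPCe and rIPCl, 5 arrays per group; filled points have an adjusted p under 0.05. The rIPCe values are all negative and open, from -1.01 to -0.49, and the rIPCl values are negative in all settings but the fixed slide block, where the value is 0.15.

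The genes whose signal moved most like that of VDR over the 15 arrays, among 2376 candidates well above background on all arrays, were FUNDC2 (Pearson r 0.971), DNAJC19 (r 0.950) and MSMB (r 0.936). FUNDC2 and DNAJC19 encode mitochondrial membrane proteins, and MSMB encodes a secreted protein. After removal of the group means the correlations were 0.929, 0.883 and 0.881. Their own log2 fold changes in rIPCl were -0.45, -0.37 and -0.48, each less than the difference of -1.09 of VDR. These correlations are given as a description, since the arrays share groups and slides.

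CYP24A1, the enzyme that inactivates calcitriol, was read by a pair of probes under the same transcript. Probe A_72_P763826 was among the 4 brightest of the 43603 probes on every array. It ranked first on rIPCe 1 and 2 and on rIPCl 2, 4 and 5, and no lower than rank 4, on control 2. Its processed signals lay between 512817 and 592162, so the highest was little above the lowest and no spot was saturated. Quantile normalization fixes the value of such a probe by its rank, and the normalized values were 18.98 to 19.03 on the control arrays and 19.03 to 19.16 in each preconditioned group. The difference from control was 0.10 (SE 0.07) in rIPCl and 0.08 (SE 0.07) in rIPCe. Without normalization between arrays these differences were 0.04 and 0.08, both within 0.1 of 0 on the log2 scale.

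The other CYP24A1 probe, A_72_P088422, varied widely. It read 14.10, 13.80, 14.47, 14.42 and 13.55 on control arrays 1 to 5. On rIPCe arrays 1 to 5 it read 13.91, 13.43, 12.32, 11.16 and 11.82. On rIPCl arrays 1 to 5 it read 12.48, 13.46, 11.52, 12.62 and 12.73. All 5 rIPCl arrays and 4 of the 5 rIPCe arrays lay below every control array, the exception being rIPCe 1. Of all probes, 6.76% had all 5 rIPCl arrays below all 5 controls. The preconditioned groups overlapped over most of their ranges. The difference from control was -1.51 (SE 0.48) in rIPCl, 2.84-fold lower, and -1.54 (SE 0.48) in rIPCe, 2.91-fold lower, and rIPCl minus rIPCe was 0.03 (SE 0.48). Between the lowest and the highest array of a group the probe spanned 0.93 in control, 2.75 in rIPCe and 1.94 in rIPCl.

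The readings of CYP24A1 differed by probe, which is part of how the gene was chosen and so not a finding. Over the 15 arrays the pair correlated at -0.19, and at 0.64 once the group means were removed. The brighter probe takes its normalized value from a few top ranks, so both correlations rest on a narrow range. For CALB1 and S100G, which were also read by pairs of probes, the correlations over all arrays were 0.991 and 0.999. Those probes were not held at the top ranks, so the comparison is not a like one. The mean of both CYP24A1 probes differed from control by -0.71 in rIPCl and -0.73 in rIPCe, and describes neither probe. With slide as a fixed block the difference of A_72_P088422 was 0.66 in rIPCl and -0.33 in rIPCe. On slide 1, with controls alone, the probe read 13.80 to 14.47, on slide 2 it read 12.32 to 13.91, on slide 3 11.16 to 12.48 and on slide 4 11.52 to 13.46. Within slide 2 the 3 rIPCe arrays averaged 0.33 below control 5, and within slide 3 rIPCl 1 lay 0.99 above the mean of the 2 rIPCe arrays. Where each probe lies in the transcript was not analysed here.

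By the brighter of the CYP24A1 probes, the genes of most similar pattern were PIK3AP1 (r 0.843), SPDEF (r 0.841) and CAV3 (r 0.832) over the 15 arrays. Since that probe takes its value from a few ranks, these likenesses rest on a narrow range of values.

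CYP27B1, the enzyme that makes calcitriol, showed no group difference beyond its spread. Its probe, A_72_P223152, read 5.54, 7.78, 7.19, 5.55 and 6.05 on control arrays 1 to 5. In rIPCe it read 6.53, 7.95, 5.87, 6.18 and 8.04. In rIPCl it read 5.07, 6.95, 4.15, 6.77 and 6.12. The groups overlapped, with control and rIPCe covering nearly the same interval and 2 rIPCl arrays, rIPCl 1 and 3, below all others. The means were 6.91 ± 1.01 in rIPCe, 6.42 ± 1.01 in control and 5.81 ± 1.18 in rIPCl (SD, n = 5 each), and no neighbours in this order differed beyond their spread.

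The log2 fold change of CYP27B1 was -0.61 in rIPCl (SE 0.63, adjusted p 0.566 by limma, exact permutation p 0.405) and 0.49 in rIPCe (SE 0.63, adjusted p 0.757, exact permutation p 0.476). From rIPCe to rIPCl the difference was -1.10, with a 95% interval from -2.46 to 0.26, an adjusted p of 0.979 by limma and an exact permutation p of 0.151. The interval holds both no change and a change larger than that of VDR. Its spread was large for this array, since 8.28%, 6.19% and 1.47% of probes had a larger SD in control, rIPCe and rIPCl. GALM (r 0.841), MARVELD3 (r 0.789) and ARL3 (r 0.772) were the genes of most similar pattern, and none of their log2 fold changes in rIPCl exceeded 0.25 in size, the lowest being -0.24 for MARVELD3.

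**Figure D3:**
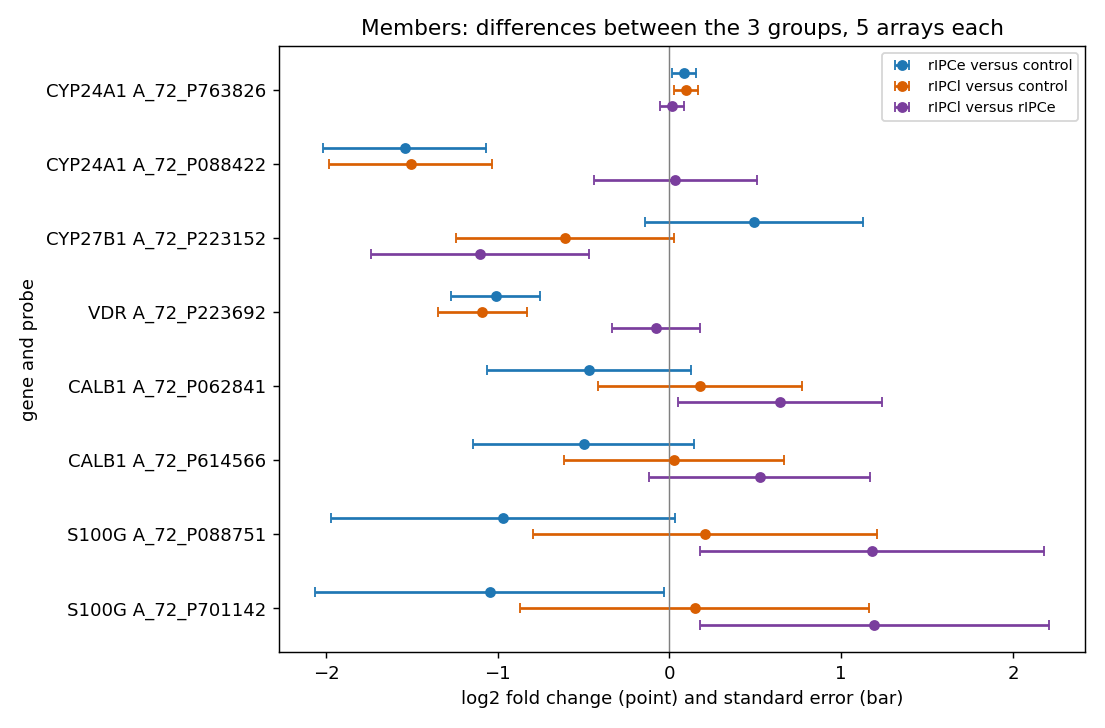
Log2 fold change (point) with its standard error (bar) for the 8 probes in each of the 3 comparisons, 5 arrays per group. VDR and CYP24A1 probe A_72_P088422 lie near -1 and -1.5 in both comparisons with control and near 0 between the preconditioned groups, CYP24A1 probe A_72_P763826 lies near 0 throughout, and the bars of CALB1 and of S100G in rIPCl versus control span 0.

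The calbindins differed more between pigs than between groups. CALB1 probe A_72_P062841 read 13.58, 14.12, 13.84, 13.54 and 14.40 on control arrays 1 to 5. In rIPCe it read 11.49, 12.47, 14.82, 14.64 and 13.71. In rIPCl it read 15.42, 13.96, 12.91, 13.66 and 14.40. The control arrays lay within less than 1 log2 unit, whereas rIPCe held the lowest arrays, rIPCe 1 and 2, as well as a pair of the highest, rIPCe 3 and 4, and rIPCl 1 was the highest of all. The SD of CALB1 was 0.36 in control, 1.43 in rIPCe and 0.93 in rIPCl, where the median SD over all probes was 0.32, 0.34 and 0.29.

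The means of CALB1 were 14.07 in rIPCl, 13.90 in control and 13.43 in rIPCe, and no neighbours in this order differed beyond their spread. Its log2 fold change was 0.18 in rIPCl (SE 0.59, adjusted p 0.883 by limma, exact permutation p 0.714) and -0.47 in rIPCe (SE 0.59, adjusted p 0.752, exact permutation p 0.508). The rIPCl mean exceeded the rIPCe mean by 0.64, with a 95% interval from -0.63 to 1.92 and an adjusted p of 0.979 by limma. The second probe, A_72_P614566, gave 0.03, -0.50 and 0.53 for the same 3 comparisons and followed the first over the arrays (r 0.991). The sign of the small rIPCl value rests on rIPCl 1, since it was -0.16 without that array, and the rIPCe value was 0.02 without rIPCe 1. Without normalization between arrays the rIPCl value was -0.07.

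RHCG (r 0.761), PPARA (r 0.734) and CLDN19 (r 0.727) were the genes most like CALB1 over the 15 arrays. RHCG is an ammonia transporter of the connecting tubule and collecting duct, and CLDN19 is a tight-junction protein of the thick ascending limb. The likenesses of CALB1 were weaker than those of VDR, and all are descriptions.

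S100G spread still more widely. Probe A_72_P088751 read 9.65, 10.12, 9.43, 8.60 and 8.70 on control arrays 1 to 5. In rIPCe it read 7.06, 9.73, 10.31, 7.22 and 7.32. In rIPCl it read 12.94, 8.17, 6.72, 10.81 and 8.91. Both the highest array of all, rIPCl 1, and the lowest, rIPCl 3, belonged to the late window, and rIPCe fell into a pair of arrays within or just above the control range, rIPCe 2 and 3, and 3 arrays below all controls. The SD was 0.64 in control, 1.56 in rIPCe and 2.42 in rIPCl, and 0.0643% of all probes had a larger SD in rIPCl.

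The means of S100G were 9.51 in rIPCl, 9.30 in control and 8.33 in rIPCe, and no neighbours differed beyond their spread. Its log2 fold change was 0.21 in rIPCl (SE 1.00, adjusted p 0.920 by limma, exact permutation p 0.857) and -0.97 in rIPCe (SE 1.00, adjusted p 0.687, exact permutation p 0.230). For rIPCl minus rIPCe it was 1.18, with a 95% interval from -0.97 to 3.33 and an adjusted p of 0.979 by limma. The second probe, A_72_P701142, gave 0.15, -1.05 and 1.19 and followed the first closely (r 0.999), so the spread was present at both probes. Without rIPCl 1 the rIPCl value was -0.65, and without rIPCl 4 it was -0.12. Within slide 3, rIPCl 1 lay 5.67 above the mean of the 2 rIPCe arrays, and with slide as a fixed block the rIPCe difference was 0.33. In rIPCl the fixed block gave 5.99 (adjusted p 0.241 by limma) and 5.89 at the second probe (adjusted p 0.262). The random block gave 1.03. The fixed-block value there links control 5 and rIPCl 1 through the widely spread rIPCe arrays of slides 2 and 3. The genes most like S100G were C14H1orf198 (r 0.779), GRB10 (r 0.756) and SERPINA3-2 (r 0.700).

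**Figure D4:**
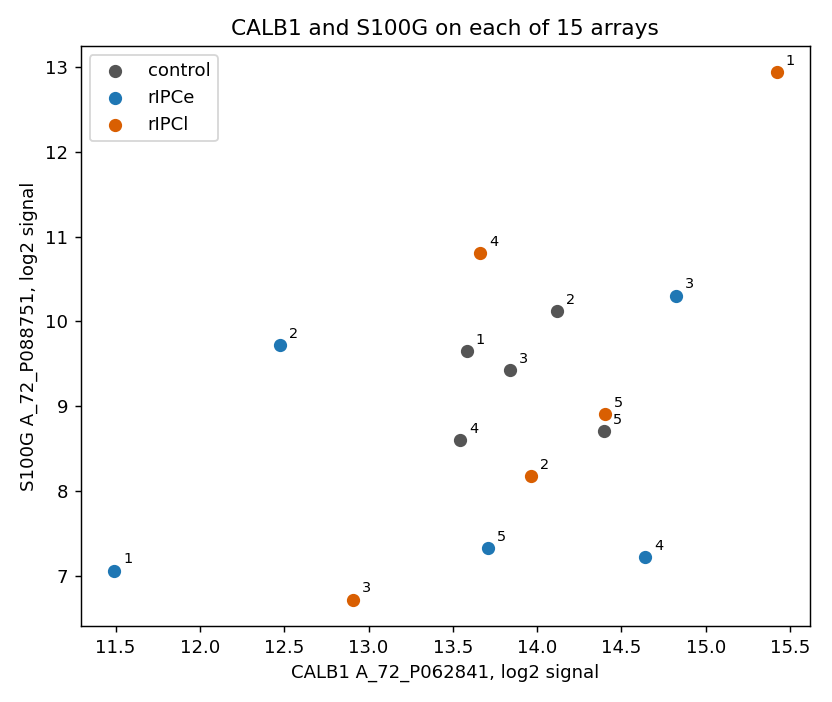
S100G against CALB1 on each of the 15 arrays (log2 signal, 1 probe each, numbered by replicate and coloured by group). The control arrays cover less of either axis than rIPCe or rIPCl, rIPCl 1 is highest for both genes, at 15.42 and 12.94, rIPCe 1 is low for both, and rIPCe 4 is high for CALB1 and low for S100G.

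CALB1 and S100G were not shown to vary together from pig to pig. With the group means removed, their correlation over the 15 arrays was 0.465 by Pearson's r (permutation p 0.140) and 0.364 by Spearman's rho (permutation p 0.267), and r was 0.320 without rIPCe 1 and rIPCe 3, the arrays farthest from the median of CALB1. Between VDR and S100G, r was 0.484 (permutation p 0.0757) and rho 0.168 (permutation p 0.573), and r was 0.304 without control 2 and rIPCl 3. After adjustment over the 6 pairs of tested members, none passed, and the smallest adjusted p was 0.419 for r and 0.950 for rho. CYP27B1 and VDR, the enzyme that makes the hormone and the receptor that binds it, gave an r of 0.341 (permutation p 0.264, adjusted 0.528) and a rho of 0.304 (permutation p 0.317).

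Beyond the members, 48 genes of vitamin D metabolism, its receptor complex and renal calcium and phosphate handling were listed. Of these, 23 were matched to a probe by RefSeq accession, and the others may have probes under other identifiers. In rIPCl, 2 of the 23 were called, both lower (FDX1 and ATP2B1). That is 8.7% of the genes measured, near the 6.27% of all probes called, so the count is not a result about the pathway. In rIPCl 10 had a positive and 13 a negative log2 fold change, and the median was -0.09 against -0.03 over all probes. In rIPCe none of the 23 was called by limma, and 11 were positive and 12 negative. Between rIPCl and rIPCe limma also called none, with 14 higher and 9 lower in rIPCl. Megalin and cubilin, which take the vitamin D carrier protein into the tubule cell, and the calcium channels TRPV5 and TRPV6 were among the 25 not analysed here.

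**Figure D5:**
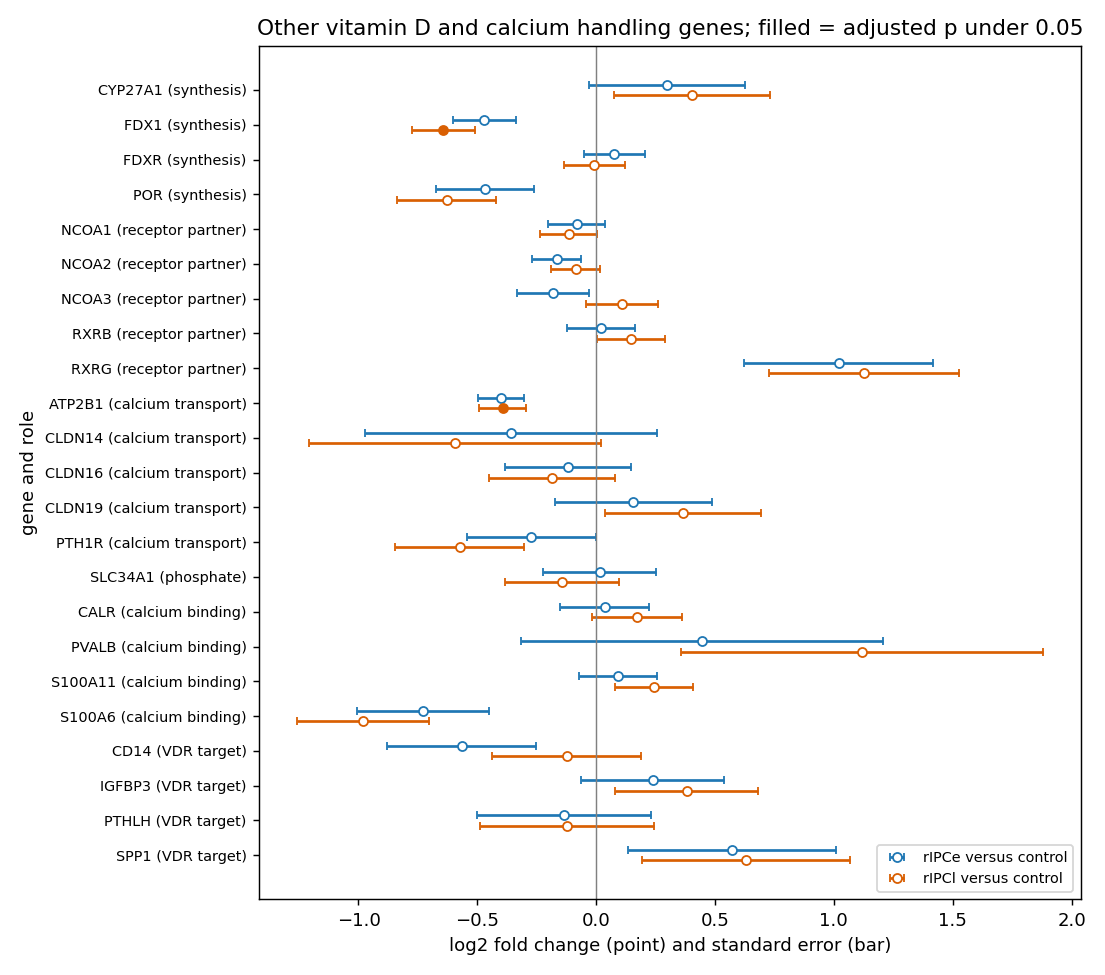
Log2 fold change against control (point) with its standard error (bar) for the 23 measured genes, ordered by role, in rIPCe and rIPCl, 5 arrays per group; filled points have an adjusted p under 0.05. Only FDX1 and ATP2B1 are filled, both at negative values in rIPCl, and both lie at a similar place in rIPCe.

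Of the synthesis genes, FDX1 fell. FDX1 is the ferredoxin that passes electrons to mitochondrial cytochromes P450, among them CYP27B1, CYP24A1 and CYP27A1. It read 13.90, 14.40, 14.20, 14.18 and 13.83 on control arrays 1 to 5, 13.87, 13.69, 13.38, 13.54 and 13.68 in rIPCe, and 13.54, 13.55, 13.18, 13.60 and 13.44 in rIPCl. All 5 rIPCl arrays and 4 of 5 rIPCe arrays were below every control, the exception again being rIPCe 1. For 6.76% of all probes, all 5 rIPCl arrays lay below all 5 controls. The difference was -0.64 in rIPCl (SE 0.13, adjusted p 0.0244 by limma), and the rIPCe difference was -0.47 (SE 0.13, adjusted p 0.196). The other FDX1 probes gave -0.67 and -0.55 in rIPCl. The call was lost without control 2, control 3, rIPCl 3, rIPCl 4 or rIPCl 5, with adjusted p from 0.0546 to 0.0634, and with slide as a fixed block the value was -0.25 (adjusted p 0.831 by limma).

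The reductase that feeds FDX1, FDXR, was not called at -0.01 in rIPCl, nor was CYP27A1, a mitochondrial sterol hydroxylase that can add the hydroxyl at carbon 25, at 0.40 (adjusted p 0.454 by limma). POR, the reductase of the microsomal cytochromes P450, had -0.63 in rIPCl (adjusted p 0.0761 by limma) and -0.47 in rIPCe (adjusted p 0.332), with 4 and 3 of 5 arrays below every control.

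None of the 5 measured receptor partners was called by limma. RXRG, 1 of the retinoid X receptors, was not well above background on any control array and was so on 2 of 5 arrays in each preconditioned group, and no fold is given for it. RXRB had 0.15 in rIPCl, and the coactivators NCOA1 and NCOA2 had -0.12 and -0.09. The coactivator NCOA3 read 6.29 to 7.19 in control, 6.44 to 6.84 in rIPCe and 6.64 to 7.16 in rIPCl. All 10 preconditioned arrays lay within the range of the controls. Its log2 fold change was 0.11 in rIPCl (SE 0.15, adjusted p 0.677 by limma) and -0.18 in rIPCe (SE 0.15, adjusted p 0.603). In rIPCl the other 3 probes of NCOA3 ranged from -0.67 to 0.07, and in rIPCe from -0.90 to -0.18.

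Of 5 measured genes of calcium entry and exit, ATP2B1 fell in rIPCl. ATP2B1 is a plasma membrane pump that moves calcium out of the cell. It read 11.14, 11.31, 11.34, 11.24 and 11.21 on control arrays 1 to 5, 10.77, 11.01, 10.95, 10.69 and 10.81 in rIPCe, and 10.93, 10.80, 10.62, 11.02 and 10.90 in rIPCl. All 10 preconditioned arrays lay below all 5 controls, a pattern that 1.71% of all probes showed. The difference was -0.39 in rIPCl (SE 0.10, adjusted p 0.0359 by limma) and -0.40 in rIPCe (SE 0.10, adjusted p 0.185), and the other 4 probes of ATP2B1 gave -0.47 to -0.29 in rIPCl. The call was lost without control 2, 3 or 4 or rIPCl 2, 3, 4 or 5 (adjusted p 0.0624 to 0.0853), without normalization between arrays (0.126) and with slide as a fixed block, where the value was -0.13 (adjusted p 0.898 by limma).

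The parathyroid hormone receptor PTH1R, which in the proximal tubule raises the synthesis of calcitriol, had -0.58 in rIPCl (SE 0.27, adjusted p 0.192 by limma) and -0.27 in rIPCe. The claudins of the thick ascending limb, which govern the paracellular passage of calcium, were not called, with -0.60 for CLDN14, -0.19 for CLDN16 and 0.37 for CLDN19 in rIPCl. SLC34A1, the main phosphate transporter of the proximal tubule, was the 1 gene measured of its role and had -0.14 in rIPCl and 0.01 in rIPCe, the latter near 0 and of either sign under other settings.

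Among 4 other calcium-binding proteins, none was called. S100A6 (calcyclin) came closest, at 17.26 to 17.92 in control, 16.05 to 18.04 in rIPCe and 16.35 to 16.90 in rIPCl. All 5 rIPCl arrays (as for 6.76% of all probes) and 4 of 5 rIPCe arrays lay below every control, and rIPCe 1 lay above every control. Its difference was -0.98 in rIPCl (SE 0.28, adjusted p 0.0509 by limma) and -0.73 in rIPCe (SE 0.28, adjusted p 0.272). PVALB (parvalbumin), a marker of the distal convoluted tubule, had 1.12 in rIPCl (SE 0.76, adjusted p 0.365) and 0.44 in rIPCe. It ranged from 7.23 to 9.46 in control, 5.92 to 10.82 in rIPCe and 8.99 to 9.94 in rIPCl. CALR and S100A11 had 0.17 and 0.24 in rIPCl.

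Known targets of the receptor other than CYP24A1 and the calbindins were not called either. SPP1 (osteopontin), a secreted phosphoprotein that also rises in injured tubules, had 0.63 in rIPCl (SE 0.44, adjusted p 0.377 by limma) and 0.57 in rIPCe. CD14, the lipopolysaccharide coreceptor of myeloid cells, had -0.12 in rIPCl and -0.57 in rIPCe (adjusted p 0.426), and IGFBP3 had 0.38 and 0.24. PTHLH was not well above background on any array.

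Whole kidney tissue mixes cell types, and fewer cells of a type cannot be told apart from less RNA per cell. Of 10 listed proximal tubule markers 6 were measured, and 5 of the 6 were negative in rIPCl. Only 1 was called lower (FBP1, -0.91, adjusted p 0.0386 by limma), where 3.58% of all probes were called lower. The median of the 6 markers was -0.66 in rIPCl and -0.17 in rIPCe. Their summed linear signal was 121963 to 271870 in control, 120565 to 175794 in rIPCe and 84331 to 162182 in rIPCl. That sum was mostly FBP1 in control, where FBP1 had a mean of 17.18 and SLC34A1, the next, 14.66. SLC22A8 had the lowest value of the 6 in rIPCl (-1.51, adjusted p 0.0587 by limma), and GGT1 was the positive one (0.47). Markers of the distal convoluted and connecting tubule, where the calbindins reside, were represented by KLK1 and PVALB alone. In rIPCl they went opposite ways, with -1.55 for KLK1 (adjusted p 0.259 by limma) and 1.12 for PVALB (adjusted p 0.365). Their summed signal spanned 8313 to 34248 on control arrays, 3646 to 20880 on rIPCe arrays and 1282 to 22854 on rIPCl arrays. The control means were 14.01 for KLK1 and 8.48 for PVALB, so the sum on control arrays was mostly KLK1. The 4 collecting duct markers measured, AQP2, AQP3, SCNN1A and SCNN1G, had none called and a median of 0.06.

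Of 5 measured macrophage markers, C1QA (1.65) and MRC1 (1.01) were called higher in rIPCl, each with an adjusted p of 0.0244 by limma. The share of all probes called higher was 2.69%. AIF1 (0.85, adjusted p 0.0601 by limma) and CD163 (0.90, adjusted p 0.210) were not called. CD14 had -0.12 in rIPCl, 0.02 there at its other probe, and -0.57 in rIPCe, and was not called. The summed signal of the 5 markers was 6388 to 18944 in control and 11090 to 26344 in rIPCl. In rIPCl the log2 fold changes of the 5 T cell markers had 1.35 as their median and 1.15 (CD3D) as their lowest, and none was called by limma. By the study's thresholds, applied to limma's unadjusted p, all 5 were higher in rIPCl, where 5.83% of all probes passed in either direction. The second probe of CD4 had -0.30. CD4 and CD3D were well above background on 1 and 3 of the 5 control arrays. The 2 measured markers of tubular injury, SOX9 and LCN2, had 2.50 and 1.04 in rIPCl and 1.82 and 0.52 in rIPCe, SOX9 being well above background on 1 of 5 control arrays. Summed, they covered 756 to 6255 on control arrays, 1617 to 6323 on rIPCe arrays and 3018 to 7463 on rIPCl arrays. The fibroblast markers DCN and COL1A2 had 0.96 and 0.91 in rIPCl and 0.95 and 0.60 in rIPCe, and their summed signal spanned 16452 to 33969 on control arrays, 22440 to 76910 on rIPCe arrays and 25907 to 59960 on rIPCl arrays. None of these 4 was called by limma in either comparison. The part of these shifts in the values of VDR, CYP24A1, CYP27B1, FDX1 and ATP2B1 was not tested.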

How the data were processed

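Total RNA of 15 pig kidneys, 1 array per pig, had been labelled with Cy3 and hybridised to single-colour Agilent porcine arrays. The authors deposited scanner output of Agilent Feature Extraction 11.0.1.1 and a table of probe values, both holding intensity values (linear scale). Per the file headers these were corrected for background array by array, without normalization across arrays. The genome build behind the probes is not given in the sources used here. Control spots were removed, outlier spots (1 to 70 per array) were set to missing, the log2 of the processed signal was quantile normalized, and spots of a probe were averaged. For genes with several probes, the probe of highest mean signal stood for the gene. A linear model with 3 group means was fitted to 43603 probes by lmFit and eBayes of limma 3.58.1 (R 4.3.3, data.table version 1.17.8), with Benjamini-Hochberg adjustment over all probes. Exact permutation tests were two-sided over all assignments of 10 arrays to groups of 5, correlations used 1e+05 permutations, and the pipeline was tested on simulated data. The number of arrays limits the precision.

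Gene symbols came from RefSeq accessions (6686 probes, 3020 genes), and the probes of other identifiers stayed unnamed. The members, gene lists and tests were chosen with earlier results of these data known. Named in the text were all member probes, the pathway genes that were called in any comparison, the 2 of largest change in each role, other pathway genes by their value alone, and the 3 genes most correlated with each member. For background correction by normexp (offset 50), the median spot signal was used where the mean had been planned. Alternatives were 75th percentile scaling, normexp, the deposited table, outlier spots kept, dim probes filtered out, a fit to the 10 arrays compared, replicate or slide as a block, the methods' t-test, a variance trend, the mean over probes, each array left out and, added after seeing the data, no normalization between arrays. The same settings for the named pathway genes were also added after seeing the data. Probe and promoter sequences were not analysed here, and 1 listed gene is not reported here.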

Additional observations from a re-analysis of the deposited data

Results flagged for a closer look

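In 3 of 60 group and probe combinations 1 array stood apart from the other 4 by Dixon's criterion, where chance gives about 1 in 20. CYP24A1 probe A_72_P763826 read 18.98 on control 2 and 19.03 on the other control arrays, a gap of a single rank near the top of the array. CLDN14 read 7.60 on rIPCe 3 and 5.36 to 5.93 on the other rIPCe arrays. SPP1 read 16.20 on rIPCl 3 and 16.88 to 17.10 on the others.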

How the results depend on the processing

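The number of probes called in rIPCl, 2736, became 7734 with 75th percentile scaling, which moved the median of all probes to -0.11 against -0.03, and 1548 with the methods' t-test, 987 with the replicate block, 479 with slide as a fixed block and 0 with slide as a random block (correlation 0.228). In rIPCe, 1 probe became 2 with 75th percentile scaling, 1189 with slide as a fixed block, and 0 with only the 10 arrays compared, the replicate block or no normalization. Between rIPCl and rIPCe, 0 became 1 with only the 10 arrays, 112 with slide as a fixed block and 2 by the t-test. Leaving out 1 array gave 49 to 4913 in rIPCl, 1 to 267 in rIPCe and 0 to 2 between them.

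The 1 called member, VDR, became 0 with only the 10 arrays (-1.09, adjusted p 0.0602 by limma), the t-test (-1.09, adjusted p 0.0823), slide as a random block (-0.91, 0.268) and slide as a fixed block (0.15, 0.974), and 0 to 1 were called with 1 array left out, VDR being at -1.24 to -0.89. The replicate numbers in the titles gave no pairing: same-numbered arrays correlated at -0.26 to 0.07 over 15 pairs, none above 0.1. These are another measure than the correlations between arrays of 0.967 to 0.992 given above. With the replicate block VDR had -1.09 (adjusted p 0.0556 by limma), no member and 1 pathway gene (FDX1) were called, and ATP2B1 had an adjusted p of 0.0798. Called pathway genes numbered 0 with either slide block, 1 without normalization, and in rIPCl 0 to 3 and in rIPCe 0 to 1 with 1 array left out. VDR in rIPCe was -0.49 within slide 2. For rIPCl minus rIPCe, VDR was 0.63 within slide 3 and with slide as a fixed block, 0.030 with it as a random block, and -0.22 to 0.10 with 1 array left out.

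CYP24A1 probe A_72_P763826 had 0.17 with 75th percentile scaling, 0 with normexp in both comparisons with control, 0.041 without normalization in rIPCl, and -0.71 and -0.73 as a mean of both probes. Set against rIPCe, rIPCl had 0.092 with percentile scaling and -0.044 without normalization. CALB1 in rIPCl was -0.22 with slide as a fixed block and -0.065 without normalization, and its second probe -0.17 with either and -0.038 with percentile scaling. S100G in rIPCe was 0.33 and 0.21 at its 2 probes with slide as a fixed block, and within slide 3 it was 5.67 between rIPCl and rIPCe. With 1 array left out, CALB1 ranged from -0.16 to 0.47 (second probe -0.40 to 0.35) in rIPCl and -0.82 to 0.016 (-0.84 to 0.0050) in rIPCe, and S100G from -0.65 to 0.91 (-0.71 to 0.85) in rIPCl.

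With slide as a fixed block, rIPCl values were 1.13 for CD14, 1.27 for CLDN14, 0.13 for POR and 0.0076 for S100A6, and rIPCe values were 0.52 for CD14, 0.42 for NCOA3 and -0.13 for SLC34A1. That block also enlarged values in rIPCl without a call: S100G had 5.99 and 5.89 against 0.21 and 0.15, SPP1 2.85 against 0.63, PTH1R -1.82 against -0.58, NCOA3 0.85 against 0.11, CYP27B1 -1.31 against -0.61 and SLC34A1 -0.43 against -0.14, whereas PVALB had 0.43 against 1.12. In rIPCe it gave -1.47 against -0.47 for CALB1, 1.60 against 0.57 for SPP1, -1.16 against -0.27 for PTH1R and -0.72 against -0.36 for CLDN14. With slide as a random block CD14 had 0.048 in rIPCl and SLC34A1 -0.0021 in rIPCe. SLC34A1 also had 0.0032 with normexp in rIPCl, and in rIPCe -0.078 with percentile scaling and -0.072 without normalization. With 1 array left out, CD14 was -0.31 to 0.026 in rIPCl, NCOA3 -0.022 to 0.20 in rIPCl, PVALB -0.029 to 1.19 and SLC34A1 -0.10 to 0.19 in rIPCe. S100A6 passed the threshold in rIPCl under 6 alternatives, with adjusted p from 0.0185 to 0.0450 by limma or the t-test. NCOA3 was -0.14 in rIPCl as the mean of its 4 probes. The causes were not tested. CYP24A1 probe A_72_P088422 was 0.66 in rIPCl with slide as a fixed block. CYP27B1 kept its direction and its side of the threshold in all comparisons and under all alternatives run. Signal over background limits RXRG, PTHLH, SOX9, CD4 and CD3D, and 5 arrays a group limit the rest. Within-slide values of rIPCl versus control could not be had, since no slide holds both groups.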
